A study of Mus musculus with 6 samples.

Results

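Histone lysine methyltransferases and demethylases were followed in RNA-seq libraries of mouse microglia, the resident macrophages of the brain. The genes were chosen by symbol from the deposited count table, as rows whose symbol begins with Kdm1 to Kdm8, Kmt2, Kmt5, Setd1 to Setd9, Ezh1, Ezh2, Ehmt1, Ehmt2 or Nsd1 to Nsd3. The rule leaves out Kdm5c, Kdm5d and Kdm6a, which lie on the sex chromosomes, and no expression value entered it. It gave 34 of the 17459 genes in the table, 19 of the methyltransferase families and 15 of the demethylase family. Setd8 is the older symbol of Kmt5a, and the table holds Kmt5b, Kmt5c, Nsd2 and Nsd3 under older symbols that the rule does not take.

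All animals were male C57BL/6J mice, labelled as 8 weeks old, and 3 libraries were made for each genotype. The cKO mice were Mir137loxP/loxP;Tmem119-CreERT2, with loxP sites around both Mir137 alleles. The cWT mice were Mir137+/+;Tmem119-CreERT2 and so carried the same Cre with intact Mir137. Mice of both genotypes received tamoxifen, which activates this Cre, for 7 days at 7 to 8 weeks of age. The Cre is expressed from Tmem119, a gene of microglia, so the deletion is designed to take place in cells that use that gene. The labels name 4 mice in the isolation without saying how they fall into the replicates, so the p-values reflect the spread among these libraries alone, part of which may be technical.

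Histone lysine methyltransferases add methyl groups to lysines in the tails of histones, and demethylases remove them. Methylation of lysine 4 and lysine 36 of histone H3 is found at active genes, whereas methylation of lysine 9 and lysine 27 is found at silent ones. Most of the methyltransferases carry a SET domain, and the demethylases are either amine oxidases (Kdm1) or JmjC-domain enzymes that need iron and oxoglutarate. In macrophages and microglia these enzymes are known for setting which enhancers and inflammatory genes are open, Kdm6b among them. The microRNA miR-137 is known for its role in neural stem cells and neurons, where Kdm1a and Ezh2 were reported as its targets in mouse.

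The mature miR-137-3p is shown with its seed, bases 2 to 8, in capitals, together with 30-base windows of 3′ UTRs in which capitals mark a match to that seed. The microRNA is that of RefSeq (GRCm38.p6, chr3:118433901-118433923, plus strand). The windows were read from GENCODE transcripts (GRCm38) and are given in the direction of the transcript. They were picked as the site in the reported target Kdm1a (chr4:136550766-136550795, minus strand), the 3 genes with an 8-base match, the 2 sites in Kmt2a and the site in Setd3.
miR-137-3p: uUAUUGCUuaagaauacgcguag
Kdm1a: caagctcttctAGCAATActagatcctact
Kdm4a: accttgtccttAGCAATAAaatggattgaa
Kdm5b: ttatttatctcAGCAATAActtctatgttg
Kdm7a: cacacccactcAGCAATAAcccttggacct
Kmt2a, site nearer the stop codon: gaagtcagcaaAGCAATAtgatgcagccca
Kmt2a, site farther from it: cttcattttaaAGCAATAcaaagttattga
Setd3: ttgttattattAGCAATAttataaatagat

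The Kdm4a window lies at chr4:118136962-118136991 on the minus strand, that of Kdm5b at chr1:134631882-134631911 on the plus strand and that of Kdm7a at chr6:39143028-39143057 on the minus strand. The Kmt2a windows lie at chr9:44805831-44805860 and chr9:44804329-44804358, and that of Setd3 at chr12:108117457-108117486, all on the minus strand. The 7 bases AGCAATA, searched on the strand of the transcript in the longest annotated 3′ UTR, were found in 8 of the 34 genes, or 23.5%, against 10.3% of 16194 genes with an annotated 3′ UTR. The 3′ UTRs were longer in the enzymes, with a median of 1649.5 bases against 1257.5 bases. Besides the genes printed, Kdm2a and Setd7 held a match, and Ezh2 did not hold these 7 bases. Other forms of seed match were not searched. The 8 bases AGCAATAA, which contain the 7-base match, were found in 3 of the 34 genes (8.82%) and in 4.38% of all genes with a 3′ UTR.

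The libraries held 12068698 to 15212806 estimated counts in cKO and 16503817 to 17482042 in cWT. Mir137 is listed with a base mean of 0 by the authors' deposited table. Its values in single libraries are not used here, and these data give no check of the deletion. Tmem119, from which the Cre is expressed, was at 1084 ± 225 CPM (counts relative to the library total, adjusted by TMM) in cKO and 425 ± 30.1 CPM in cWT (SD, n = 3 each). All 8 microglial markers were detected, 3 called higher and 4 lower, and their sum ran from 30650 to 34856 CPM in cKO and from 32072 to 34154 CPM in cWT. The sum of 4 neutrophil markers (of 5 listed, all 4 called higher) ran from 9949 to 14562 CPM in cKO and from 2775 to 3422 CPM in cWT. That of 5 choroid plexus markers, all called higher, ran from 11363 to 15670 CPM in cKO and from 2835 to 3217 CPM in cWT, and that of 5 monocyte markers, of which 4 were called higher and 1 lower, from 1038 to 1340 CPM in cKO and from 518 to 603 CPM in cWT. The summed markers of astrocytes, oligodendrocytes and endothelial cells were also higher in every cKO library than in every cWT library. Astrocyte markers (6, 3 called higher) ran from 370 to 621 CPM in cKO and from 347 to 355 CPM in cWT. Oligodendrocyte markers (6, 4 called higher and 1 lower) ran from 291 to 429 CPM in cKO and from 273 to 283 CPM in cWT. Endothelial markers (5, 2 called higher and 3 lower) ran from 1387 to 1662 CPM in cKO and from 917 to 1107 CPM in cWT. No listed marker in the table was at 0 in all libraries. The part of these cells in the changes of the enzymes was not tested, and fewer cells of a type cannot be told apart from less RNA per cell.

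In the quasi-likelihood test of edgeR over 13490 genes, 4803 were called higher and 4926 lower in cKO at an adjusted p under 0.05. The fold changes of all tested genes had a median of −0.02 on the log2 scale. With libraries scaled by total count alone this median was −0.42 and 33.1% of the calls were higher, against 49.4% with the TMM scaling used here. The fold changes of the whole table followed transcript length. Their Spearman correlation with the annotated length was −0.72 over 13393 genes, which share the same 6 libraries and are not independent. A fit that carries offsets for transcript length and GC content was therefore made beside the fit without them.

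Most of the enzymes were lower in cKO. Of the 33 genes tested, 26 fell (78.8%, against 36.5% of all genes tested) and 1, Setd6, rose (3.03%, against 35.6%). The remaining 6, which are Ezh2, Setd8, Kdm1b, Setd3, Kdm8 and Setd4, were not called. The median log2 fold change of the 33 genes was −1.33. With total-count scaling 30 were called lower, with a median of −1.72. Ezh2, Setd8, Kdm1b and Setd3 were then among them, and Setd6 was not called. The decrease was at least 2-fold in 19 genes (57.6%, against 19.6% of all genes), and in 9 of them at least 4-fold, against 3.80% of all genes. In 26 genes every cKO library lay below every cWT library, against 37.9% of all genes tested, and in 1 gene every cKO library lay above, against 36.7%. In the authors' deposited table, 26 of the enzymes were lower and 1 was higher at an adjusted p under 0.05, against 28.7% and 29.2% of the genes with an adjusted p there.

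**Figure D1:**
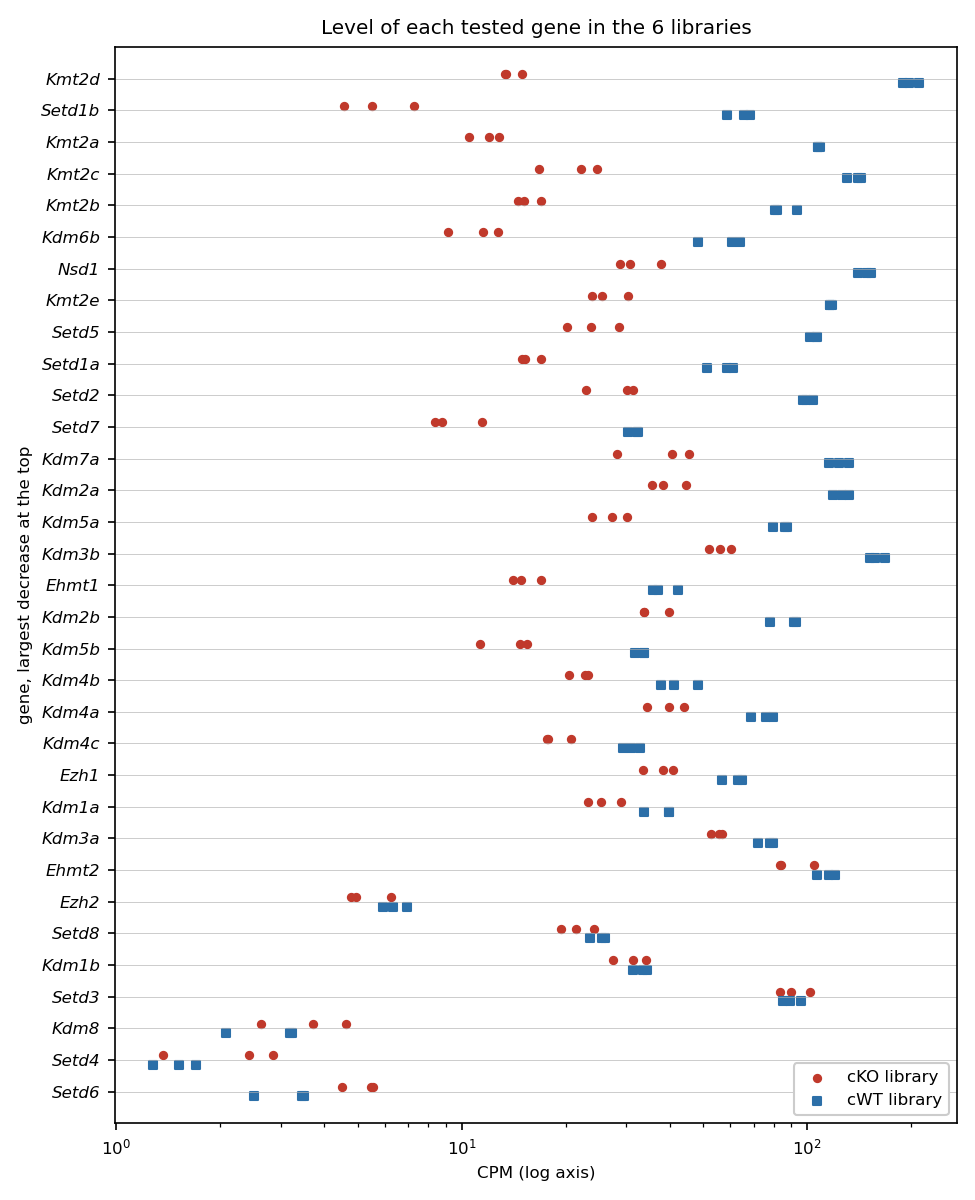
CPM on a log axis of each tested gene in the 3 cKO libraries (circles) and the 3 cWT libraries (squares), with the largest decrease at the top. The genotypes do not overlap in 27 of the 33 genes, and the cKO libraries are the higher ones only in Setd6 among these. Over all tested genes, 37.9% have no overlap with cKO lower and 36.7% have none with cKO higher.

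With the length and GC offsets, 20 of the 33 genes were called lower (60.6%, against 27.5% of all genes) and 2 higher (6.06%, against 29.7%). All 20 were also lower without the offsets. Of them, 15 were among the 16 enzymes in the longest decile of annotated transcript length. With the offsets 3682 of all 13393 genes were called lower, and 3155 of the 12053 genes outside that decile. The share called lower was thus higher within that decile than over all genes. All genes of that decile kept a median log2 fold change of −0.17 with the offsets. The median log2 fold change was then −0.39 for the enzymes and 0.00 for all genes. A decrease of at least 2-fold remained in 4 genes (12.1%, against 7.29% of all genes), all of them methyltransferases of lysine 4 of histone H3, namely Setd1b, Kmt2d, Kmt2a and Kmt2c. Kmt2d, Kmt2a and Kmt2c also have the longest transcripts of the enzymes, at 19823, 16461 and 14967 bases. With the offsets the fold changes of the 33 genes still followed length, at a Spearman correlation of −0.616. The part of length in these 4 decreases was not tested. The 2 genes called higher with the offsets were Ehmt2 and Kdm1b.

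**Figure D2:**
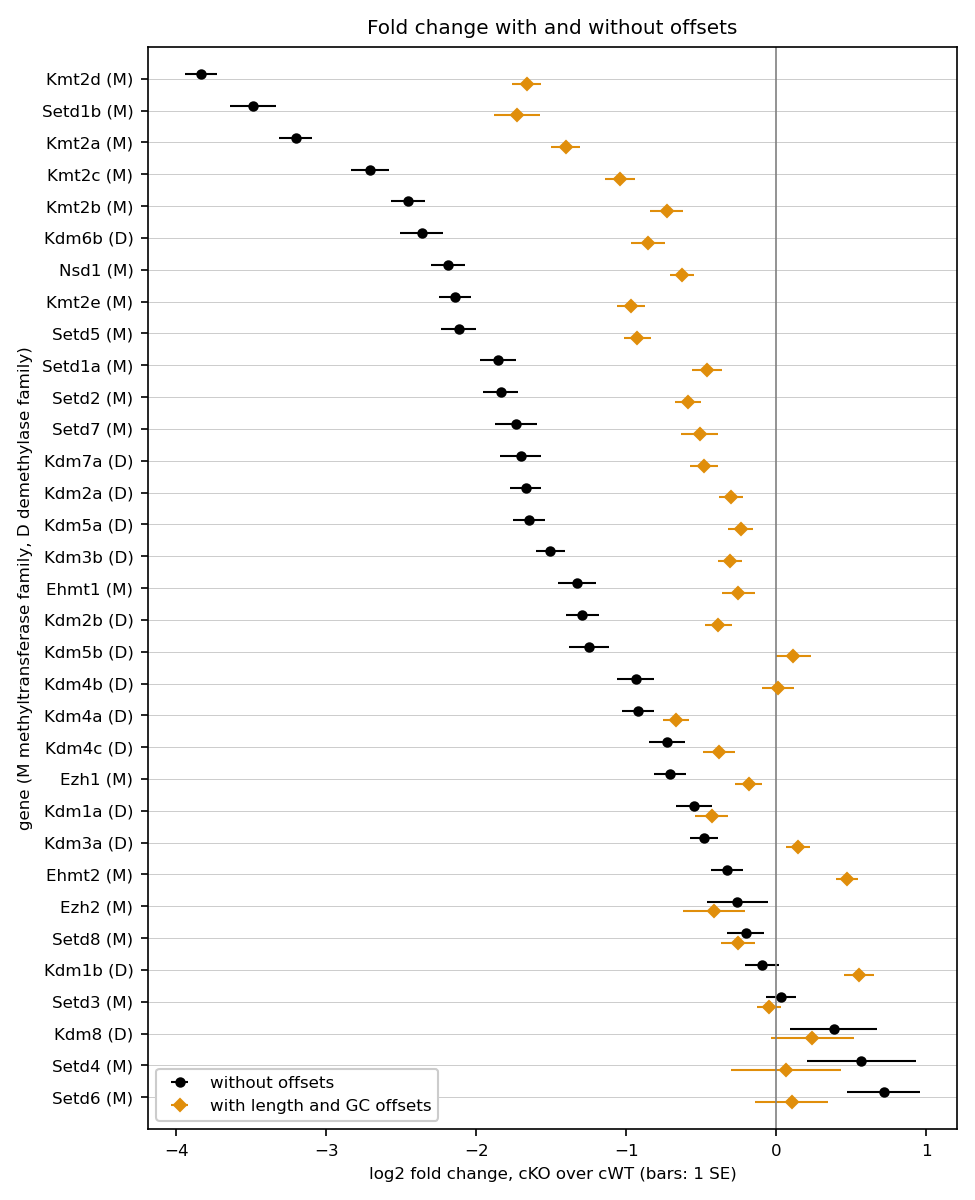
Log2 fold change of cKO over cWT for each tested gene without offsets (circles) and with the length and GC offsets (diamonds), with bars of 1 SE. The median lies at −1.33 without and at −0.39 with the offsets, and the 4 genes beyond −1 with the offsets are Setd1b, Kmt2d, Kmt2a and Kmt2c.

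The methyltransferases of lysine 4 held the largest decreases. All 7 fell, with a median log2 fold change of −2.71, and all 7 were called lower with the offsets, with a median of −1.04. All 7 lie in the longest decile of transcript length, where 83.2% of the genes were called lower without the offsets. Over all genes, 36.5% were called lower without the offsets and 27.5% with them. Summed over the 7 genes, the level was 98.2, 95.6 and 86.5 CPM in the cKO libraries, against 672, 663 and 716 CPM in the cWT libraries. The cKO sum was 13.7% of the cWT sum. Their share of the counts of all 34 genes was 10.5% ± 0.814 in cKO and 27.7% ± 0.252 in cWT (SD, n = 3 each). The shares did not overlap, and the two-sided exact permutation p of 0.1 is the smallest that 3 against 3 libraries allow. They are not adjusted for transcript length, which had a median of 8857 bases in these 7 genes and 6363 bases in all tested enzymes. The part of length in the shares was not tested.

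Kmt2d, which places monomethyl marks at enhancers, had 13.3, 13.5 and 14.96 CPM in the cKO libraries and 197, 189.5 and 210.5 CPM in the cWT libraries. The genotypes were far apart and the replicates close together. Kmt2d fell by 3.83 on the log2 scale (SE 0.108, edgeR adjusted p = 1.391e-13), and the log2 fold change with the offsets was −1.66 (SE 0.0944). Its relative Kmt2c, a subunit of similar enhancer complexes, was at 21.2 ± 4.07 CPM in cKO and 138 ± 6.72 CPM in cWT, and fell by 2.71 on the log2 scale, with −1.04 under the offsets.

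Setd1b, which works at promoters in the complex that holds most of the cell's lysine 4 trimethylation activity, had 7.30, 5.49 and 4.56 CPM in the cKO libraries. In the cWT libraries it had 58.5, 65.6 and 68.5 CPM. It fell by 3.49 on the log2 scale (SE 0.152) and held the lowest value of the enzymes with the offsets, −1.73. Its relative Setd1a fell by less, with 15.7 ± 1.05 CPM in cKO, 57.0 ± 5.03 CPM in cWT and a log2 fold change of −1.86, or −0.46 with the offsets. Of the exon bases of Setd1a, 51.85% are shared with Gm49388 on the same strand, and no source used here says how the authors' counting divided such reads.

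Kmt2a, the founding member of its family and a frequent partner in human leukaemia fusions, was at 11.8 ± 1.20 CPM in cKO and 108 ± 0.902 CPM in cWT. Its log2 fold change was −3.20, and −1.40 with the offsets. Kmt2b, its closest relative, was at 15.6 ± 1.23 CPM in cKO and 85.3 ± 7.11 CPM in cWT, with a log2 fold change of −2.46, or −0.73 with the offsets. Setd7, a monomethyltransferase that also acts on proteins other than histones, moved least in this group. Its levels were 8.76, 11.4 and 8.35 CPM in the cKO libraries and 32.3, 30.4 and 32.2 CPM in the cWT libraries, with no overlap. It fell by 1.73 on the log2 scale (SE 0.139, edgeR adjusted p = 3.137e-09), with −0.51 under the offsets. Kmt2e, a family member with no shown activity on histones, had 30.4, 25.5 and 23.8 CPM in the cKO libraries and 116.5, 117 and 118 CPM in the cWT libraries. The genotypes did not overlap, and it fell by 2.14 on the log2 scale, with −0.97 under the offsets. Of its exon bases, 9.31% overlap Srpk2 on the other strand.

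All 3 genes listed for methylation of lysine 36 fell, and all 3 were called lower with the offsets. They lie in the longest decile of transcript length, where 83.2% of the genes were called lower without the offsets. With the offsets 27.5% of all genes were called lower. Nsd1, which adds dimethyl marks, had 30.8, 37.8 and 28.7 CPM in the cKO libraries and 149, 140.2 and 154 CPM in the cWT libraries. Every cKO value lay under 40 CPM and every cWT value above 100 CPM. It fell by 2.19 on the log2 scale (SE 0.111, edgeR adjusted p = 1.463e-11), with −0.63 under the offsets. Setd2, which carries out trimethylation along transcribed genes, had 30.2, 31.3 and 22.9 CPM in the cKO libraries and 97.6, 99.1 and 104 CPM in the cWT libraries. The genotypes were again separate, and Setd2 fell by 1.84 on the log2 scale, with −0.59 under the offsets. Setd5, whose enzymatic activity is debated, was at 24.2 ± 4.20 CPM in cKO and 105 ± 2.58 CPM in cWT, a log2 fold change of −2.12, or −0.93 with the offsets.

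The methyltransferases of lysine 27 are the catalytic subunits of the Polycomb repressive complex PRC2, and of these Ezh1 fell and Ezh2 was not called. Ezh1, the form of cells that do not divide, had 33.6, 38.3 and 40.9 CPM in the cKO libraries and 56.6, 65.0 and 63.3 CPM in the cWT libraries. The groups did not overlap, and Ezh1 fell by 0.71 on the log2 scale (SE 0.107, edgeR adjusted p = 9.751e-06). Its log2 fold change with the offsets was −0.19 and was not called. With offsets from the longest annotated transcript Ezh1 was called lower, at −0.33.

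Ezh2, the form of dividing cells and a reported target of miR-137, had 4.77, 4.96 and 6.23 CPM in the cKO libraries and 5.90, 6.35 and 6.93 CPM in the cWT libraries. The genotypes overlapped. Its log2 fold change was −0.26 (SE 0.205, edgeR adjusted p = 0.267), and −0.42 with the offsets (adjusted p = 0.0904). With total-count scaling it was called lower, at −0.65 (adjusted p = 0.00873). With offsets from the longest annotated transcript it was also called lower, at −0.64 (edgeR adjusted p = 0.01085). The call of Ezh2 thus depends on the scaling and on the transcript taken for the offsets.

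The methyltransferases of lysine 9 work as a heterodimer of Ehmt1 and Ehmt2. Ehmt1 had 14.1, 16.9 and 14.8 CPM in the cKO libraries and 37.1, 35.9 and 42.2 CPM in the cWT libraries. The groups did not overlap, and Ehmt1 fell by 1.33 on the log2 scale (SE 0.124, edgeR adjusted p = 2.369e-08). With the offsets the call of Ehmt1 was lost, at a log2 fold change of −0.25 (adjusted p = 0.0533). With offsets from the longest annotated transcript Ehmt1 was called lower, at −0.35. Ehmt2 had 83.8, 83.7 and 105 CPM in the cKO libraries and 107, 116 and 120.2 CPM in the cWT libraries. Its groups were separated by a narrow gap. Ehmt2 fell by 0.33 on the log2 scale (edgeR adjusted p = 0.00913), and without cKO replicate 2 the adjusted p was 0.0568. With the offsets its direction turned, and it was called higher at 0.47 on the log2 scale (SE 0.0764, adjusted p = 1.305e-05).

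Setd8, the monomethyltransferase of lysine 20 of histone H4, had 19.4, 21.4 and 24.2 CPM in the cKO libraries and 23.6, 25.5 and 25.9 CPM in the cWT libraries. The groups overlapped, and its log2 fold change of −0.20 was not called (edgeR adjusted p = 0.146), nor was that of −0.26 with the offsets. With offsets from the longest annotated transcript Setd8 was called lower, at −0.47.

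Of 3 SET-domain proteins known mainly for substrates other than histones, 1 rose and the others were not called. Over all genes 35.6% were called higher, so nothing is read from this count. Setd3, which methylates actin on a histidine, had 83.4, 90.1 and 102 CPM in the cKO libraries and 89.3, 85.3 and 96.0 CPM in the cWT libraries. The libraries of the genotypes were interleaved, and its log2 fold change of 0.03 was not called and was −0.36 with scaling by total count alone. Setd6, which methylates the NF-kB subunit RelA, had 5.55, 4.52 and 5.47 CPM in the cKO libraries and 3.46, 2.51 and 3.49 CPM in the cWT libraries. All cKO values lay above all cWT values, and Setd6 rose by 0.72 on the log2 scale (SE 0.244, edgeR adjusted p = 0.014). The adjusted p of Setd6 was 0.0793 without cWT replicate 2, 0.238 with total-count scaling and 0.738 with the offsets. Setd4 had 1.36, 2.83 and 2.43 CPM in the cKO libraries and 1.70, 1.28 and 1.52 CPM in the cWT libraries, with overlap and no call, and its log2 fold change was 0.57, or 0.07 with the offsets.

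Among the demethylases 12 of the 14 genes tested fell, against 36.5% of all genes, and the median log2 fold change was −1.09. Kdm1b and Kdm8 were not called. With the offsets 9 were called lower (against 27.5% of all genes) and 1, Kdm1b, higher (against 29.7%), with a median of −0.30. Their share of the counts of all 34 genes was 47.4%, 47.5% and 45.4% in the cKO libraries and 39.2%, 39.4% and 39.6% in the cWT libraries. The shares did not overlap, with a two-sided exact permutation p of 0.1, the smallest this design allows. They are not adjusted for length, and the tested demethylases had a median transcript of 5083.5 bases, against 6755 bases for the methyltransferases. With the offsets the median log2 fold change of the methyltransferases was −0.51. The part of length in the shares was not tested.

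Of the 4 demethylases of lysine 4, 3 fell, against 36.5% of all genes. Kdm1a, an amine oxidase of the CoREST complex and a reported target of miR-137, had 29.0, 23.3 and 25.3 CPM in the cKO libraries and 33.7, 39.8 and 39.8 CPM in the cWT libraries. The groups did not overlap. Kdm1a fell by 0.55 on the log2 scale (SE 0.121, edgeR adjusted p = 0.000545), and the log2 fold change was −0.43 with the offsets (adjusted p = 0.00198). Kdm1b, its relative in oocytes and other cells, had 31.3, 34.2 and 27.5 CPM in the cKO libraries and 33.5, 31.4 and 34.4 CPM in the cWT libraries. These values overlapped and the log2 fold change of −0.10 was not called, whereas with the offsets it was 0.55 (SE 0.0983, edgeR adjusted p = 4.353e-05). Of the exon bases of Kdm1b, 9.19% overlap Dek on the other strand.

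Kdm5a, a JmjC enzyme that removes trimethyl marks and binds the retinoblastoma protein, had 27.2, 30.02 and 23.8 CPM in the cKO libraries and 86.4, 79.7 and 87.4 CPM in the cWT libraries. The genotypes were separate. It fell by 1.65 on the log2 scale (SE 0.108), with −0.24 under the offsets (edgeR adjusted p = 0.0201). Its relative Kdm5b fell by 1.25 on the log2 scale and was not called with the offsets, at 0.11.

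All 6 tested demethylases of lysine 9 fell, with a median log2 fold change of −0.93, and 4 were called lower with the offsets. Over all genes, 36.5% were called lower without the offsets and 27.5% with them. Kdm7a, a JmjC enzyme with a PHD finger, had 45.7, 40.6 and 28.2 CPM in the cKO libraries and 132, 116 and 124 CPM in the cWT libraries. No cKO value came near the cWT range. It fell by 1.70 on the log2 scale (SE 0.136, edgeR adjusted p = 2.885e-09), with −0.48 under the offsets. Kdm3a, which is induced by low oxygen, had 56.9, 55.4 and 52.5 CPM in the cKO libraries and 78.3, 72.2 and 79.5 CPM in the cWT libraries. The gap was narrower but complete, and Kdm3a fell by 0.48 on the log2 scale (edgeR adjusted p = 0.000186). With the offsets Kdm3a was at 0.15 and was not called.

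Kdm3b fell by 1.51 on the log2 scale, with 56.0 ± 4.19 CPM in cKO and 159 ± 8.28 CPM in cWT, and was at −0.31 with the offsets. Of its exon bases, 24.6% overlap the antisense gene Gm26538. Without a stated strand setting, reads from such a pair cannot be told apart. The Kdm4 enzymes, which act on lysine 9 and lysine 36, were closer together. Kdm4b, Kdm4a and Kdm4c all fell, with log2 fold changes of −0.94, −0.92 and −0.73. Only Kdm4a and Kdm4c of these 3 were called lower with the offsets, at −0.67 and −0.38. With offsets from the longest annotated transcript Kdm4a and Kdm4c were at −0.28 and −0.56. Kdm4d was counted 0 times in every cKO library and 5, 0 and 5 times in the cWT libraries, and did not pass the filter on low counts. A count of 0 allows up to 3 counts in a library, so no fold is given.

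The demethylases of lysine 36, Kdm2a and Kdm2b, are CpG-island binding proteins, and both fell and were called lower with the offsets. Over all genes, 36.5% were called lower without the offsets and 27.5% with them. Kdm2a had 35.5, 44.5 and 38.3 CPM in the cKO libraries and 119, 126 and 132 CPM in the cWT libraries. The values lay far apart, and Kdm2a fell by 1.67 on the log2 scale (SE 0.105, edgeR adjusted p = 1.413e-10), with −0.30 under the offsets. Kdm2b, a subunit of a variant Polycomb complex, had 33.7, 33.7 and 39.8 CPM in the cKO libraries and 78.3, 91.6 and 93.2 CPM in the cWT libraries. It fell by 1.29 on the log2 scale, with a complete gap between the genotypes, and was at −0.39 with the offsets.

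The decrease of Kdm6b was the largest of the demethylases. Kdm6b removes trimethyl marks from lysine 27 and is induced by inflammatory stimuli in macrophages. It had 9.15, 11.5 and 12.8 CPM in the cKO libraries and 48.3, 60.8 and 64.1 CPM in the cWT libraries. The lowest cWT library was well above the highest cKO library. Kdm6b fell by 2.36 on the log2 scale (SE 0.145, edgeR adjusted p = 1.039e-10), with −0.85 under the offsets. Kdm8, whose activity on histones is disputed, had 2.63, 3.72 and 4.63 CPM in the cKO libraries and 2.07, 3.23 and 3.19 CPM in the cWT libraries. The groups overlapped and Kdm8 was not called, with a log2 fold change of 0.38 that was −0.01 with total-count scaling and 0.24 with the offsets.

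On a scale of CPM per kilobase of annotated transcript, Setd3 had the highest level in both genotypes, at 33.4 in cKO and 32.7 in cWT. Ehmt2 was next, at 22.6 in cKO and 28.4 in cWT. Kmt2d stood at rank 32 of 33 in cKO and rank 16 in cWT, with 0.702 CPM per kilobase in cKO and 10.04 in cWT. Setd1b was the lowest of the tested genes in cKO, at 0.653 CPM per kilobase, and had rank 24 in cWT, at 7.25. Setd8 moved the other way in this order, to rank 8 in cKO, against rank 19 in cWT, although its own change was not called. Each gene is divided by the same length in both genotypes. Shifts in rank therefore still carry the trend of the fold changes with length.

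The enzymes are encoded by long transcripts, with a median annotated length of 6363 bases against 2996 bases for all tested genes. Across the 33 genes the Spearman correlation of log2 fold change with length was −0.888, and −0.616 with the offsets. Over all genes it was −0.084 with the offsets. Of the 33 genes, 16 fell in the longest decile of all genes, at 6440 bases or more. All 16 were called lower, where 83.2% of the genes of that decile were, and their median log2 fold change was −2.13 against −1.44 for the decile. Set against the median of its own length decile, the fold change was lower in 27 of the 33 genes. Kmt2d lay 2.39 and Setd1b 2.04 below the median of their decile on the log2 scale, whereas Kdm1b lay 0.89 above its own. The longest decile runs from 6440 to 123179 bases, and Kmt2d has 19823 bases. Length is therefore not held fixed within that decile. Outside the longest decile 10 of 17 genes were called lower, against 31.4% of all genes there. With the offsets 5 of the 17 were, against 26.2%, which is near the background.

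**Figure D3:**
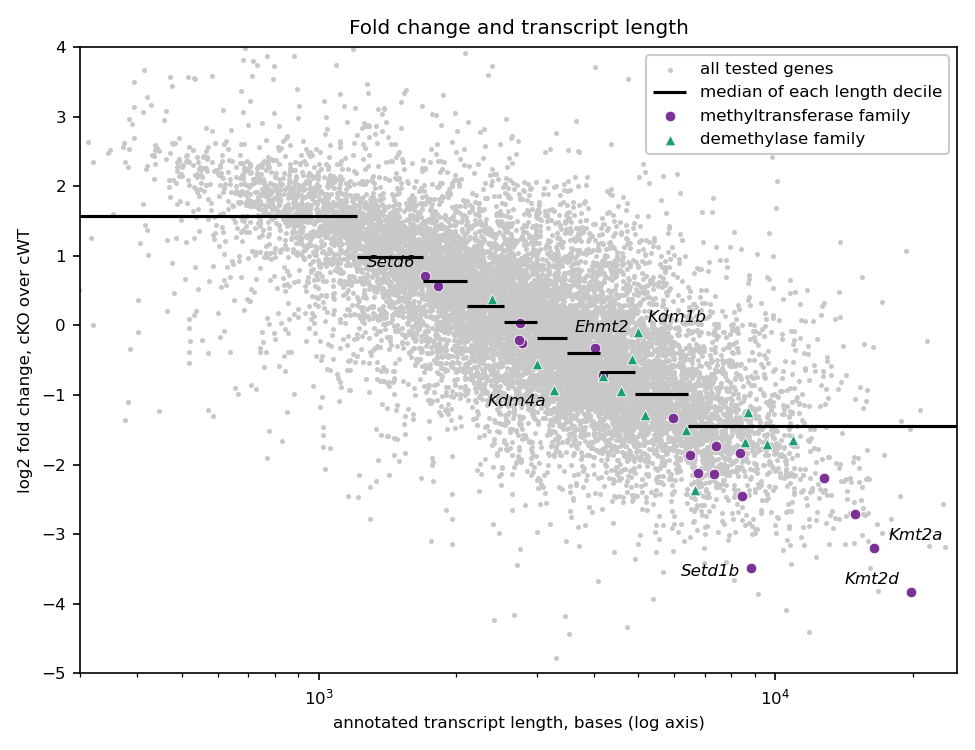
Log2 fold change of cKO over cWT against annotated transcript length on a log axis, for all tested genes (grey), the methyltransferase family (circles) and the demethylase family (triangles), with the median of each length decile as a bar. Genes beyond the axes are not drawn. Of the 33 enzymes, 27 lie below the median of their decile, with Kmt2d, Setd1b and Kmt2a at the bottom.

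Ratios of the counts of related genes within a library do not depend on scaling between libraries. They hold the difference in length of the 2 genes, so only their change between genotypes is read. That change still carries the trend of the fold changes with length. With the offsets it turned direction for Ezh1 over Ezh2 (−0.45 without, 0.23 with) and Kdm2a over Kdm2b (−0.38 and 0.08). It grew for Kdm1a over Kdm1b, Kdm4a over Kdm4c and the pairs of Kmt5b with Kmt5c and Nsd2 with Nsd3. The other changes shrank, as for Kdm3a over Kdm3b (1.03 and 0.45). Of 12 pairs, 11 had no overlap between the genotypes, each with a two-sided exact permutation p of 0.1, the smallest possible, and 0.109 after Benjamini-Hochberg adjustment over the 12. Among single tested genes, 37.9% had no overlap with cKO lower and 36.7% had none with cKO higher. The share among other pairs of genes was not measured, so nothing is read from the count of 11. The log2 ratio of Setd1a to Setd1b was 1.06, 1.44 and 1.89 in the cKO libraries and −0.19, −0.16 and −0.17 in the cWT libraries. Setd1a thus held a larger part of the counts of this pair in cKO. Per kilobase, Setd1a was above Setd1b in both genotypes, at 2.42 and 0.653 CPM in cKO and at 8.79 and 7.25 CPM in cWT. Kmt2c to Kmt2d had a mean log2 ratio of 0.59 ± 0.38 in cKO and −0.53 ± 0.06 in cWT, and Kmt2a to Kmt2b one of −0.40 ± 0.14 in cKO and 0.35 ± 0.11 in cWT (SD, n = 3 each). Kdm3a to Kdm3b had a mean log2 ratio of −0.03 ± 0.08 in cKO, against −1.05 ± 0.04 in cWT. Ehmt1 to Ehmt2 stood at −2.56 ± 0.26 in cKO and −1.57 ± 0.10 in cWT.

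**Figure D4:**
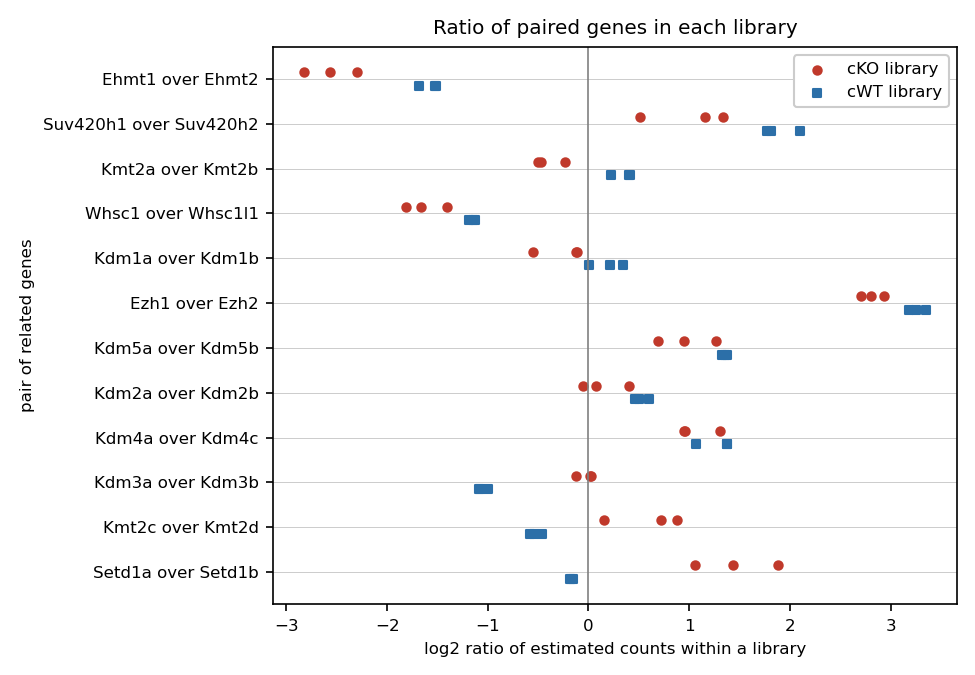
Log2 ratio of the estimated counts of 12 pairs of related genes within each cKO library (circles) and each cWT library (squares). The genotypes overlap only in Kdm4a over Kdm4c.

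In 9 of the 12 pairs the longer gene was the one that was relatively lower in cKO. The exceptions were Kdm1a with Kdm1b, Kdm4a with Kdm4c, and Whsc1 with Whsc1l1, the older symbols of Nsd2 and Nsd3. That of Kdm4a rests on the transcript taken, of 3279 bases against 4196 bases for Kdm4c. The longest annotated transcript of Kdm4a has 4663 bases, which would make Kdm4a the longer gene. The Kdm4a to Kdm4c ratio overlapped between the genotypes, with an exact permutation p of 0.2.

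Genes with a seed match were compared with the others as a description. Of the 8 enzymes with the 7-base match, 7 fell, with a median log2 fold change of −1.46, and Setd3 was not called. Of the 25 tested without it, 19 fell and 1 rose, with a median of −1.33. With the offsets 6 of the 8 were called lower at a median of −0.46, and 14 of the 25 at a median of −0.38. Over all genes tested, 36.5% were called lower and 35.6% higher without the offsets, and 27.5% were called lower with them. The genes with a match had longer transcripts, with a median of 7994.5 bases against 5953 bases. In the longest decile, at 6440 bases or more, 83.2% of all genes were called lower without the offsets. Among the 3 genes with the 8-base match, Kdm4a and Kdm7a were called lower with the offsets and Kdm5b was not. The 7 bases were also searched on both strands of the RefSeq promoter windows, 300 bases each. None of 35 windows of 25 enzymes held them, against 2.16% of 32851 windows, which says only that these letters are not in those windows.

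Counts of called genes in the lists of partners stand against 35.6% of all genes called higher and 36.5% called lower. The lists are short, several of the counts lie near those shares, and nothing is read from the counts about a list. Of 13 tested subunits of the lysine 4 methyltransferase complexes, 2 rose and 6 fell, with a median log2 fold change of −0.13. Hcfc1, a chromatin-bound cofactor, fell by 2.43 on the log2 scale (SE 0.109), and Ncoa6, a subunit of the Kmt2c and Kmt2d complexes, fell by 2.12 (SE 0.137). Dpy30, a core subunit that these complexes share, rose by 1.78 on the log2 scale (SE 0.123) and was at −0.01 with the offsets. Of 10 tested PRC2 subunits, 3 rose and 5 fell, with a median of −0.56. Jarid2, which guides the complex to chromatin, fell by 1.72 on the log2 scale. Eed, the reader subunit of the core, rose by 1.10, and Rbbp4, a histone chaperone, by 0.91, and both were called higher with the offsets as well.

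Of 10 tested subunits of the CoREST complex, which carries Kdm1a, 2 rose and 6 fell, with a median of −0.87. Its scaffold Rcor1 was at 5.89 ± 0.966 CPM in cKO and 22.8 ± 1.15 CPM in cWT. Rcor1 fell by 1.95 on the log2 scale and was called lower with the offsets as well, at −2.05 (SE 0.147, edgeR adjusted p = 2.725e-11). Gse1 and Phf21a, other subunits of the complex, fell too, with log2 fold changes of −1.91 and −1.49.

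Of 15 other tested lysine methyltransferase genes, 3 rose and 9 fell, with a median of −0.51. Ash1l, a lysine 36 enzyme, fell by 2.48 on the log2 scale. Dot1l, the enzyme that methylates the globular core of histone H3, fell by 2.41, and Prdm2, a PR-domain protein, fell by 1.95. All 3 were called lower with the offsets too. Of 12 other JmjC proteins, 4 rose and 5 fell, with a median of −0.03. Phf2, Phf8 and Jmjd1c fell, at −1.86, −1.59 and −1.39 on the log2 scale, and of these only Jmjd1c was not called with the offsets. Of 9 tested genes of arginine methylation, which are methyltransferases and the Prmt5 cofactor Wdr77, 5 rose and 1 fell, with a median of 0.38. Prmt1, the main enzyme of asymmetric dimethylation, was at 140.1 ± 9.88 CPM in cKO and 55.4 ± 3.75 CPM in cWT and rose by 1.34 on the log2 scale (SE 0.0975). Prmt10, the older symbol of Prmt9, rose by 0.64, and Carm1, a coactivator enzyme, fell by 0.998 on the log2 scale. With total-count scaling 1 gene of arginine methylation was called higher and 2 lower.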

How the data were processed

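RNA-seq of microglia gave 3 cKO and 3 cWT libraries, grouped by their titles. The authors deposited estimated counts per gene symbol, not scaled between libraries. The authors' deposited table of their own comparison gives, per the file headers, a base mean (a signal averaged over scaled libraries), a log2 fold change, a Wald statistic (a score), p-values and adjusted p-values. Per the submitters' processing notes, STAR 2.7.9a, RSEM and DESeq2 were used with GRCm38 and mm10, without role or order. No source used here gives the annotation, strand setting or library kit.

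Estimates were rounded, and genes were tested over the whole table in R 4.3.3 with edgeR 4.0.16 and its two-sided quasi-likelihood test. TMM scaling, filterByExpr with a minimum count of 10, genotype as the only term and Benjamini-Hochberg adjustment over 13490 genes were used, and genes were called at an adjusted p under 0.05. CPM carry the TMM factors, and SE come from the test statistic. Offsets were natural splines of 6 degrees of freedom in transcript length and GC content, from GENCODE annotation of GRCm38 (98.9% of symbols matched). A pair ratio had 0.5 counts added to each gene. Chi-square per degree of freedom between replicates ran from 3.84 to 19.3, above counting noise, so none was taken for a duplicate. The precision that depth gives covers counting error only, since reads carry no molecular identifiers.

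The genes and lists were chosen with earlier results of these data known. Per-library values are given for the largest and smallest change of each role group, for Ezh2, Kdm1a and genes that went against their group, and 3 genes with the smallest p are named from each partner list. Alternatives were DESeq2 1.42.0, limma-voom (limma 3.58.1), other scalings and filters, the offsets, a replicate block and leaving out each library.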

Additional observations from a re-analysis of the deposited data

How the results depend on the processing

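All 26 decreases of the enzymes were called lower with DESeq2, limma-voom, the other scalings, the other filters and the removal of 111 dominant genes. Leaving out each library gave 25 to 26 lower and 0 to 1 higher, with medians from −1.39 to −1.26. The number called higher was 0 with total-count scaling and with a filter of 5 CPM in 3 libraries, and 2 with the offsets, with offsets from the longest transcript and with the block plus offsets. The median log2 fold change was −1.27 with upper-quartile scaling, −1.72 with total count, −1.46 without a filter, −1.56 with the stricter filter, −0.39 with the offsets, −0.48 with offsets from the longest transcript and −0.39 with the block plus offsets. Offsets from the longest transcript, and leaving out libraries with the offsets (19 to 23 lower), were chosen after seeing the data. The longest transcripts gave 24 lower, which adds Ezh1, Ehmt1, Setd8 and Ezh2 to those called with the offsets. Of 591 values of single enzymes under alternatives, 551 kept direction and side of the threshold.

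The direction turned with the offsets, the longest-transcript offsets and the block plus offsets, in this order, for Ehmt2 (0.47, 0.38 and 0.47), Kdm1b (0.55, 0.39 and 0.55), Kdm5b (0.11, 0.058 and 0.11) and Setd3 (−0.048, −0.18 and −0.051). With the offsets and the block plus offsets it turned for Kdm3a (0.15 and 0.15) and Kdm4b (0.011 and 0.013). Setd3 was at −0.36 with total count, −0.015 without a filter and from −0.041 (without cKO replicate 3) to 0.088 with each library left out. Kdm8 was at −0.012 with total count, and Kdm1b ran from −0.15 to 0.0023 (without cKO replicate 3). The cause was not tested.

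With total count, 11 complex subunits of lysine 4 methylation were lower, 1 other methyltransferase and 2 JmjC genes higher, and 1 gene of arginine methylation higher and 2 lower. With the offsets, with or without the block, 4 of those subunits were higher, 0 of CoREST higher, 5 other methyltransferases lower and 2 JmjC genes lower. The longest-transcript offsets gave 1, 1 and 5 for the first 3 of these counts. Over all 13490 genes, total count gave 3331 higher and 6742 lower. With the offsets 29.7% of all genes were called higher and 27.5% lower.

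Genotypes share replicate numbers, but same-numbered libraries correlated only by 0.0335 to 0.0985, under the 0.1 set for pairing, against −0.103 to 0.0167 for other numbers. All 6 libraries correlated best with their own number, which is a hint from the data and not the design. With the replicate block 26 enzymes were lower and 1 higher. Depth limits Ezh2, Setd6, Kdm8 and Setd4, all under 10 CPM on average.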

Other observations

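Relatives of the enzymes that the table lists under older symbols were also measured. Suv420h1, the older symbol of Kmt5b, which adds dimethyl marks to lysine 20 of histone H4, was at 36.8, 40.6 and 31.6 CPM in the cKO libraries and 94.6, 91.6 and 96.1 CPM in the cWT libraries. The groups were separate, and it fell by 1.37 on the log2 scale (SE 0.106, edgeR adjusted p = 1.91e-09) and was at −1.23 with the length and GC offsets. Suv420h2, the older symbol of Kmt5c, an enzyme of trimethylation at the same lysine, was at 18.2 ± 3.40 CPM in cKO and 25.4 ± 3.12 CPM in cWT (SD, n = 3 each). Its groups overlapped, and it fell by 0.47 on the log2 scale (edgeR adjusted p = 0.00724) and was not called with the offsets.

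Whsc1 and Whsc1l1, the older symbols of the lysine 36 methyltransferases Nsd2 and Nsd3, both fell. Whsc1 was at 14.5 ± 2.25 CPM in cKO and 40.4 ± 1.27 CPM in cWT, a log2 fold change of −1.49, and −0.30 with the offsets. Whsc1l1 was at 44.5 ± 3.94 CPM in cKO and 90.01 ± 1.77 CPM in cWT. Its log2 fold change was −1.02 (edgeR adjusted p = 3.89e-08), and with the offsets the direction turned, to 0.43 (adjusted p = 5.563e-05).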
